A study of Mus musculus with 34 samples.

Results

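The replication-independent histone variants examined here are the products of 9 genes, H2afx, H2afz, H2afv, H2afy, H2afy2, H2afj, H3f3a, H3f3b and H1f0, taken by name from 21938 protein-coding genes of the GENCODE M21 annotation of mouse genome build mm10. For each gene, the H3K4me3 signal was averaged over 1000 bp on each side of the gene 5′ end. H3K4me3 had been profiled by CUT&RUN, in which an antibody tethers micrococcal nuclease to chromatin and the released fragments are sequenced. The material was villus cells scraped from the small intestine of C57BL/6J mice, labelled as 5 weeks old and described as slightly older in the methods. Wild-type (WT) mice were compared with ApcMin/+ mice, which carry 1 mutant allele of the tumor suppressor Apc in every cell and had normal-appearing mucosa at that age, with 2 libraries per genotype and 4 in all. The comparison asks whether the promoter mark differs in mucosa at risk of tumors before any tumor is visible. Other antibodies, RNA-seq and 12-week-old mice of the same series were not analysed here.

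Most histone proteins are made in S phase from clustered genes without introns and are deposited behind the replication fork. Variant histones are made outside S phase as well, mostly from single genes with polyadenylated transcripts, and replace the canonical proteins in chromatin that is not being copied, which makes them the main source of fresh histone in differentiated cells such as those of the villus. H3K4me3 marks nucleosomes next to active or poised gene starts, and CpG-rich promoters carry it in most tissues.

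Libraries of the same genotype differed widely. They held 1430000 and 4790000 tags (the units HOMER counts, taken here as 1 fragment each) in WT replicates 1 and 2, and 3700000 and 5470000 in ApcMin/+ replicates 1 and 2. ApcMin/+ replicate 1 stood apart, with 43.3% of its signal inside enriched regions against 11.9% to 22.6% in the other 3 libraries. Those regions were called on the mean of the same 4 tracks, so this share is not independent of them. Its median signal over the promoters tested was 13.2, against 4.53 and 3.06 in the WT libraries and 4.18 in ApcMin/+ replicate 2. Depth, enrichment and genotype cannot be told apart with these libraries. Of 10 enterocyte and villus genes, 9 reached the mean signal of 2 that was required for a test, with Vil1, a microvillus protein, highest at 14.2. None of the 3 crypt, 4 secretory, 5 immune, 3 mesenchymal and 3 muscle and nerve markers reached it. The proliferation markers Mki67, Top2a and Ccnb1 did, and at all 3 both ApcMin/+ libraries lay above both WT libraries, as they did at 38.5% of all promoters tested. Ccnb1, at 1.74 and 1.88 in WT, reached the minimum only through its ApcMin/+ values. The part of these markers in the results at the variant genes was not tested.

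At the gene 5′ end, 6 of the 9 variant genes reached a mean signal of 2 across the libraries, as did 9930 of the 21938 promoters. Those 6 were H2afx, H2afz, H2afv, H2afj, H3f3a and H1f0. As deposited, their log2 differences, ApcMin/+ minus WT on the log2(signal + 1) scale, spanned only 0.65 to 0.77, with standard errors of 0.88 to 1.25, and the median over all promoters tested was 0.85. None passed limma's test, each with a Benjamini-Hochberg adjusted p of 0.683. Across all 9930 promoters 0 passed in either direction, which is a percentage of 0, and 132 had an unadjusted p under 0.05. Both ApcMin/+ libraries lay above both WT libraries at 2 of the 6, H2afx and H3f3a, where 38.5% of all tested promoters did so, and at none of the 6 did they lie below, where 0.161% did. H2afy2 and H3f3b, which are below the signal minimum, also had higher values in both ApcMin/+ libraries, which was so at 26.0% of promoters when no minimum was set and 0 passed limma's test.

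The calls changed when ApcMin/+ replicate 2 was left out. Without it, so that replicate 1 alone stood for its genotype and was assumed to vary like the WT libraries, 5 of the 6, all but H1f0, passed limma's test as higher in ApcMin/+, as did 65.2% of all promoters tested. Leaving out ApcMin/+ replicate 1 in turn gave a median difference of -0.01 over the 9 genes, and 0 promoters passed in limma, with 90 at an unadjusted p under 0.05. All 9 variant genes were higher in ApcMin/+ without overlap when ApcMin/+ replicate 2 was left out, and also when WT replicate 1 was left out. For the 6 tested among them, the shares of all promoters tested were 98.9% and 87.5% in these runs. H2afy, H2afy2 and H3f3b are below the minimum and outside those shares, so nothing is read from them.

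Once each library was centred on its own median promoter, the 6 genes lay close to the typical promoter. Their centred log2 differences were -0.21 to -0.082 with standard errors of 0.28 to 0.33, and all 6 fell on the lower side, as did 51.2% of all tested promoters. Of the 9930, 5 promoters (0.0504%) passed limma's test as higher and 7 (0.0705%) as lower, none of them a variant gene. The centred values of H2afz were lower in both ApcMin/+ libraries than in both WT libraries, which held for 14.3% of promoters, and none of the 6 was higher in both, against 13.1%.

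**Figure D1:**
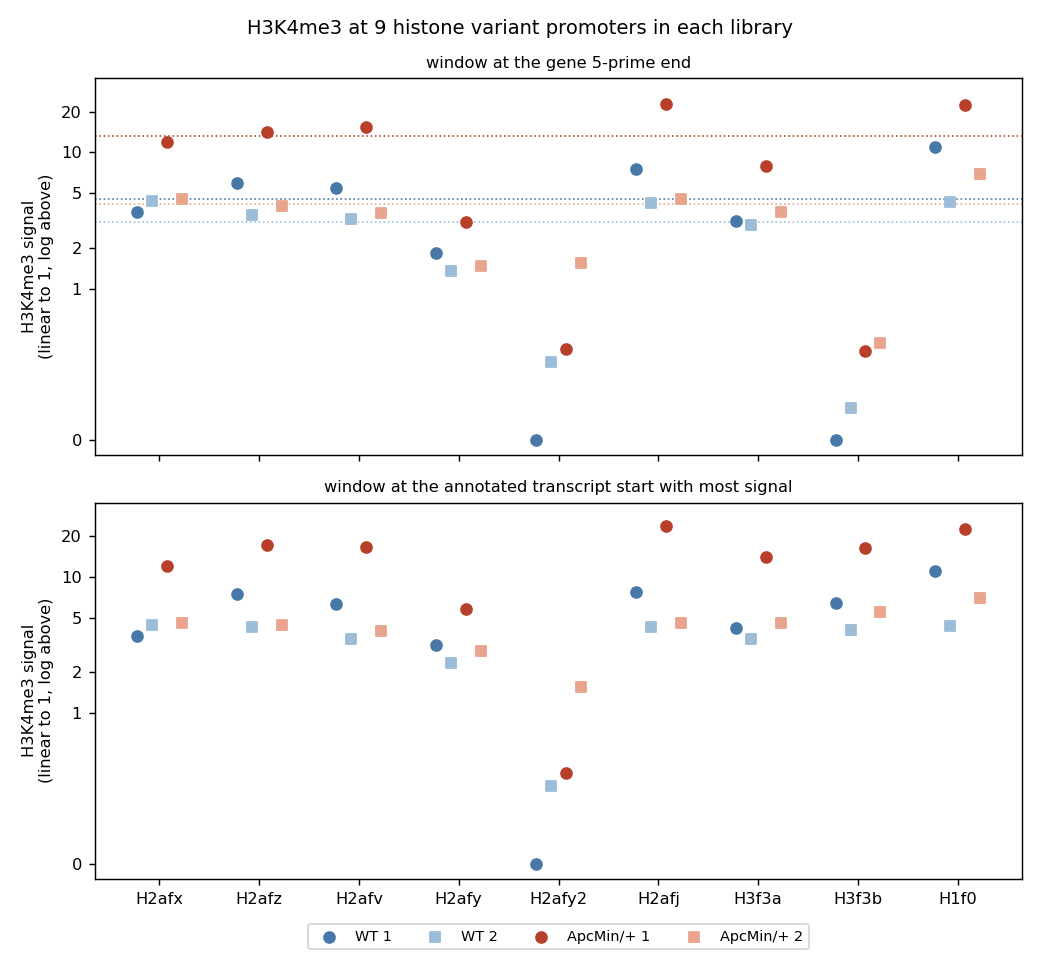
H3K4me3 signal of the 9 histone variant genes in each of the 4 libraries, at the gene 5′ end (top) and at the annotated transcript start with the highest mean signal (bottom), on an axis that is linear up to 1 and logarithmic above. Dotted lines in the top panel give each library's median over the 9930 promoters tested, and H3f3b moves from the bottom of the order to a level like that of H2afz when its other start is used.

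H2A.Z, which is exchanged into the nucleosomes that flank gene starts, is encoded by a pair of genes, H2afz and H2afv. H2afz lies on chromosome 3 at 137864487-137866922 on the plus strand and H2afv on chromosome 11 at 6427229-6444443 on the minus strand. Sequences from RefSeq on build GRCm38.p6, which is mm10, are shown for the 250 bases before the RefSeq start of both, at chr3:137864237-137864486 and chr11:6444444-6444693, because they come before the starts of a pair of genes for 1 variant. Capitals mark CCAAT on either strand (ATTGG when inverted).
H2afz: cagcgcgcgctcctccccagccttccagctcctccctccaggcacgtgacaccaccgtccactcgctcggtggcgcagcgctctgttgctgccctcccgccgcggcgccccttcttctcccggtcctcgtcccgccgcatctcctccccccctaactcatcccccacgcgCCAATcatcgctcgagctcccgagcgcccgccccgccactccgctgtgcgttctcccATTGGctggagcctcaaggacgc
H2afv: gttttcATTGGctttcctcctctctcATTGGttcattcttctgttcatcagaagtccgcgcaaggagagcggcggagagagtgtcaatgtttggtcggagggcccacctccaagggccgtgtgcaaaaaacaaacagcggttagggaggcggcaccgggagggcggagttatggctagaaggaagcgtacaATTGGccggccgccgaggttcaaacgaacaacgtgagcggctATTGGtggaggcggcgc
The motif occurs 2 times in H2afz and 4 times, always inverted, in H2afv. Of 32851 RefSeq promoters, 33.8% hold at least 1 copy in the same 250 bases and 0.840% hold at least 4.

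The signal at H2afz was 5.93 and 3.44 in the WT libraries and 14.1 and 4.02 in the ApcMin/+ libraries, resting on 17, 33, 104 and 44 tags. H2afv gave 5.49 and 3.25 in WT and 15.5 and 3.61 in ApcMin/+. At both genes ApcMin/+ replicate 1 was highest, WT replicate 1 came next, and the groups overlapped. The log2 difference was 0.65 (SE 1.08) at H2afz and 0.73 (SE 1.06) at H2afv. At the gene 5′ ends H2afz exceeded H2afv by 0.04 ± 0.12 (SD, n = 4 libraries) on the log2 scale, a gap smaller than its spread. At the strongest annotated starts it was higher in 4 of 4 libraries, by 0.15 ± 0.093. These starts were picked by their signal in the same libraries, from 7 at H2afz and 2 at H2afv, so this is a description. The H2afz start so picked belongs to a retained-intron transcript 493 bp downstream. At its coding start 126 bp downstream ApcMin/+ replicate 1 gave 15.5, below the 16.6 at the strongest H2afv start. H2afz was higher there in both WT libraries and in ApcMin/+ replicate 2. The signal of H2afz straddled its start with a trough just downstream, and further peaks lay around the start of Dnajb14, a chaperone gene on the same strand, 3188 bp downstream.

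H2A.X, the variant phosphorylated by ATM and related kinases beside DNA breaks, is encoded by H2afx on chromosome 9 at 44334694-44336077, a gene without introns. Its signal was 3.66 (exact 95% Poisson interval 1.68 to 6.43) and 4.38 (3.16 to 5.93) in WT, and 11.9 (9.53 to 14.6) and 4.56 (3.39 to 6.02) in ApcMin/+. These intervals cover counting error only. Both ApcMin/+ libraries lay above both WT libraries, but WT replicate 2 and ApcMin/+ replicate 2 were apart by much less than their intervals. The log2 difference was 0.76 (SE 1.04). After centring the groups overlapped and the difference was -0.10 (SE 0.29). On the mean of the 4 tracks 85.0% of the H2afx signal within 2000 bp lay downstream of the start, against a median of 67.9% over 10936 promoters in an enriched region. The share was 90.2% and 83.2% in WT and 90.3% and 67.6% in ApcMin/+, so ApcMin/+ replicate 2 did not share this skew.

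MacroH2A, an H2A with a large globular domain that is associated with silent chromatin, is encoded by H2afy (chromosome 13, 56073619-56136361, minus strand) and H2afy2 (chromosome 10, 61738665-61784147, minus strand). The 5′ end of H2afy gave 1.83 and 1.35 in WT and 3.11 and 1.46 in ApcMin/+, a mean of 1.94 and just under the signal minimum, so it was not tested there. That 5′ end belongs to a non-coding transcript. The annotated start with the highest signal lies 921 bp downstream, beside the starts of the coding transcripts at 730 and 831 bp, and gave 3.14, 2.33, 5.80 and 2.83 in the same order. ApcMin/+ replicate 1 was again highest, ApcMin/+ replicate 2 lay between the WT libraries, and the difference at this start was 0.46 (SE 0.79, limma adjusted p 0.682).

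At H2afy2, and at the gene 5′ end of H3f3b, ApcMin/+ replicate 2 was the highest library, where replicate 1 was the highest at the other 7 genes. H2afy2 gave 0 and 0.517 in WT and 0.599 and 1.55 in ApcMin/+, from 0, 5, 4 and 17 tags. The exact 95% Poisson interval of the 0 in WT replicate 1 reached 1.29. The interval of ApcMin/+ replicate 2 (0.905 to 2.49) overlapped this one and those of ApcMin/+ replicate 1 (0.147 to 1.38) and WT replicate 2 (0.170 to 1.22). H2afy2 has 1 annotated transcript and no enriched region over its start. A region of 300 bp appeared there when libraries were weighted by tags, and when WT replicate 1 or ApcMin/+ replicate 1 was left out. H2afy was above H2afy2 in 3 of 4 libraries at the 5′ ends and in 4 of 4 when the stronger H2afy start was used.

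H2A.J, a variant close to canonical H2A that accumulates in senescent cells and in some epithelia, is encoded by H2afj on chromosome 6 at 136808244-136810074 on the plus strand. Hist4h4, a gene for canonical H4, starts 3829 bp upstream on the other strand and had a mean signal of 4.90, so a clustered and a replication-independent gene stand side by side here. The sequence before the H2afj start, chr6:136807998-136808243 on the plus strand of GRCm38.p6 from RefSeq, is shown because it is the least CpG-rich of those printed and belongs to one of the most strongly marked members. Capitals again mark CCAAT on either strand.
H2afj: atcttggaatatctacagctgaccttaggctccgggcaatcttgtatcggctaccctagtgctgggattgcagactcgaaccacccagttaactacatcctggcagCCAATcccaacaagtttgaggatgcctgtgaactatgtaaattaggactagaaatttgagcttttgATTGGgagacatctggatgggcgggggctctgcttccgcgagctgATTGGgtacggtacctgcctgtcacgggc
It holds 3 copies of CCAAT.

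The signal at H2afj was 7.61 and 4.25 in WT and 22.7 and 4.55 in ApcMin/+. ApcMin/+ replicate 1 stood far above the others and ApcMin/+ replicate 2 lay between the WT libraries, so the groups overlapped. The log2 difference was 0.77 (SE 1.20), the largest of the 6 tested members by a small margin, and -0.082 (SE 0.28) after centring. Its maximum in 20 bp bins of the mean track lay 860 bp into the gene.

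H3.3, the H3 variant deposited at active genes by HIRA and at repeats and telomeres by DAXX and ATRX, is encoded by H3f3a and H3f3b, which make the same protein. H3f3a lies on chromosome 1 at 180800832-180813943 and H3f3b on chromosome 11 at 116021912-116027962, both on the minus strand. The H3f3a signal was 3.14 and 2.93 in WT and 7.91 and 3.68 in ApcMin/+, so both ApcMin/+ libraries were above both WT libraries. The log2 difference was 0.68 (SE 0.88), and -0.17 (SE 0.33) after centring, when the groups overlapped. At the coding transcript start 409 bp downstream the signal in ApcMin/+ was 14.0 and 4.55, with the WT libraries at 4.2 and 3.5, with a difference of 0.92 (SE 1.05, limma adjusted p 0.682).

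H3f3b depended on which annotated start was read. At the gene 5′ end the signal was 0 and 0.209 in WT and 0.586 and 0.639 in ApcMin/+, from 0, 2, 4 and 7 tags, and no fold change is given for counts this low. At the start 3489 bp downstream it was 6.35 and 4.02 in WT and 16.1 and 5.50 in ApcMin/+, from 18, 38, 120 and 60 tags. There the order of libraries was that of H2afz, H2afv, H2afj and H1f0, the groups overlapped, and the difference was 0.80 (SE 1.16, limma adjusted p 0.682). The start of the RefSeq transcript lies 3458 bp downstream of the gene 5′ end, within 31 bp of the strongest start. The gene 5′ end is instead 2360 bp from the start of Unk on the opposite strand, which had a mean signal of 7.46, and 78.6% of the signal within 2000 bp of that 5′ end lay on the side of Unk. The 30 bases shown are chr11:116024511-116024540, read on the minus strand of GRCm38.p6 from RefSeq, because they hold the only TATAAA, in capitals, found among the 8 variant promoters searched.
H3f3b: cagcgtctcTATAAAtatggaggcgtcggg
The motif begins 27 bases before the RefSeq start, and 12.4% of the 32851 promoters hold it on either strand. The 250 bases before that start also hold 4 copies of CCAAT. H3f3b exceeded H3f3a by 0.27 ± 0.16 (SD, n = 4) on the log2 scale when each was read at its strongest start, and was higher in 4 of 4 libraries, whereas at the gene 5′ ends H3f3a was higher in 4 of 4. These starts were picked by their mean signal over the 4 libraries, so their levels are a description.

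H1.0, a linker histone of non-dividing and differentiated cells, is encoded by H1f0 on chromosome 15 at 79028450-79030504 on the plus strand, in 1 exon. The 250 bases before its RefSeq start, chr15:79027962-79028211 of GRCm38.p6 from RefSeq, are shown because the most strongly marked member has neither CCAAT nor the TATA sequence, nor the GC-box letters GGGCGG, nor the cAMP response element TGACGTCA, on either strand there, and so no capitals.
H1f0: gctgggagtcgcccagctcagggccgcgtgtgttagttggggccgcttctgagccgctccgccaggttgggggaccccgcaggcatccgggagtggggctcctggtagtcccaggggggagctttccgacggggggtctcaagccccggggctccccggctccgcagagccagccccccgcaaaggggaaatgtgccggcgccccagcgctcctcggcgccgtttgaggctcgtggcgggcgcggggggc
RefSeq places this start 238 bp upstream of the GENCODE 5′ end.

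The H1f0 signal was 11.1 (7.65 to 15.8) and 4.30 (3.07 to 5.81) in WT, and 22.4 (19.1 to 26.1) and 6.94 (5.47 to 8.69) in ApcMin/+, from 32, 41, 166 and 76 tags, with exact 95% Poisson intervals. WT replicate 1 exceeded ApcMin/+ replicate 2, so the groups overlapped. The log2 difference was 0.77 (SE 1.25), and -0.084 (SE 0.30) after centring. With a mean of 11.2, H1f0 stood at the 95.5th percentile of all 21938 promoters and above its library's median tested promoter in 4 of 4 libraries, by 0.38 to 1.12 on the log2 scale. Its enriched region was 6100 bp long, at the 98.1st percentile of regions over promoters, against a median of 1900 bp. The region also takes in the start of Gcat, an enzyme of threonine breakdown, 2424 bp downstream with a mean signal of 6.60, so its length is not that of 1 promoter.

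**Figure D2:**
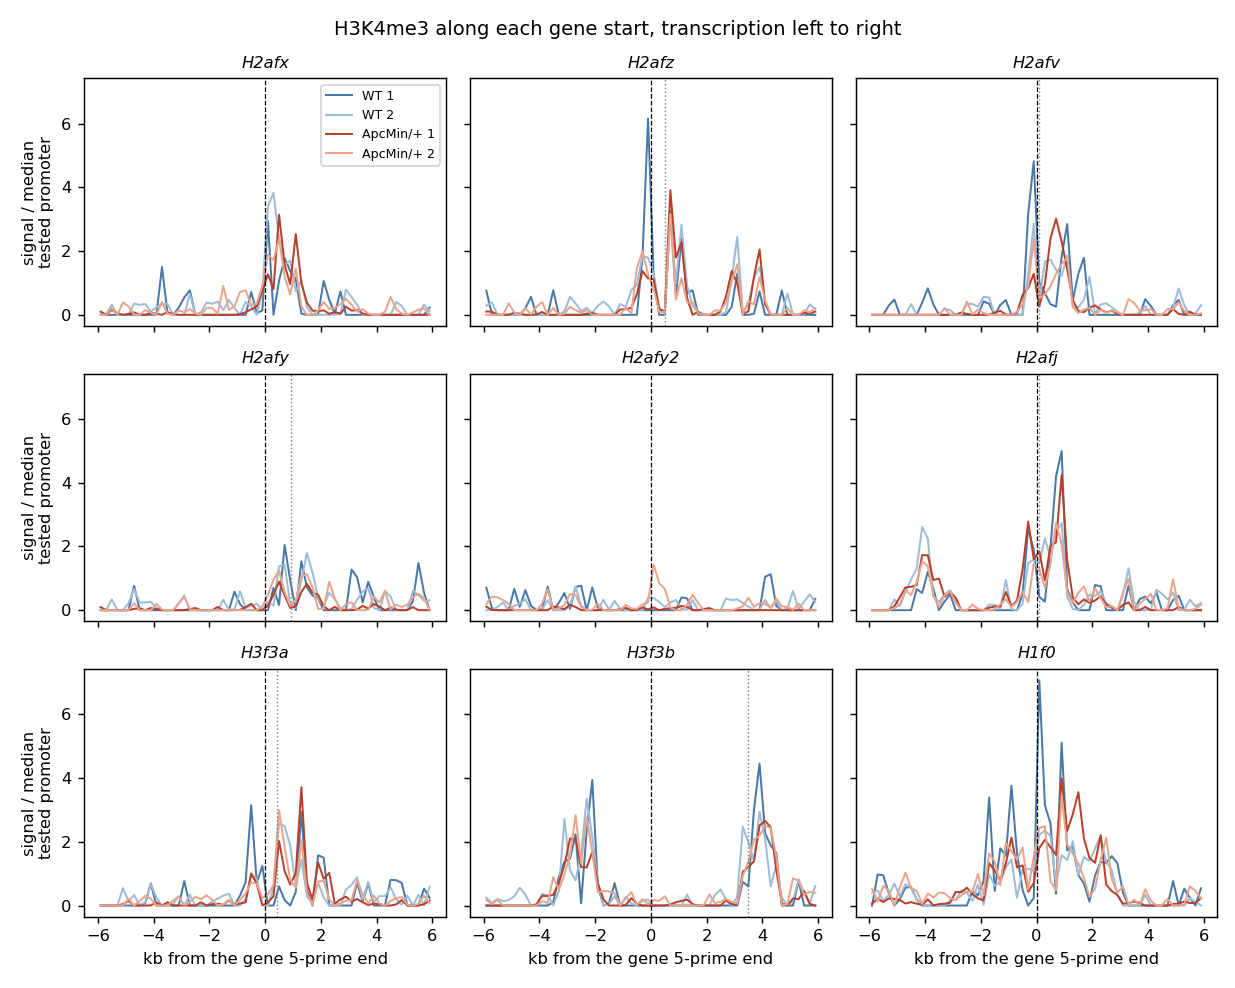
H3K4me3 signal in 200 bp bins, divided by the library's median tested promoter, from 6 kb before to 6 kb after the gene 5′ end of each variant gene, with transcription running left to right and 1 line per library. Dashed lines mark the gene 5′ end and dotted lines the annotated start with the highest signal, which for H3f3b lies under the right-hand of its 2 peaks.

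By mean signal at the gene 5′ end the order was H1f0 (11.2), H2afj (9.79), H2afv (6.97), H2afz (6.86), H2afx (6.12), H3f3a (4.42), H2afy (1.94), H2afy2 (0.667) and H3f3b (0.358). The steps from H2afj to H2afv (0.38 ± 0.12, SD over 4 libraries on the log2 scale), from H2afx to H3f3a (0.35 ± 0.17) and from H3f3a to H2afy (0.83 ± 0.24) were seen in 4 of 4 libraries and exceeded their SD. Neighbours H1f0 and H2afj (0.25 ± 0.29), H2afv and H2afz, H2afz and H2afx (0.09 ± 0.38), and H2afy2 and H3f3b (0.24 ± 0.30) differed by less than their spread. The step from H2afy to H2afy2 (0.86 ± 0.72) exceeded its SD but was absent in ApcMin/+ replicate 2. At the strongest starts H3f3b moved beside H2afz, and each neighbouring pair among the 7 members from H1f0 down to H2afx then differed by less than its SD. The summed signal of the 9 genes at the 5′ end was 38.7 and 24.6 in WT and 98.8 and 31.0 in ApcMin/+, and their mean was 1.66, 1.56, 1.60 and 1.47 times the mean of all 21938 promoters in the same libraries, so the sum followed the library.

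At the strongest annotated start, 8 of the 9 genes could be tested, all but H2afy2. None passed limma's test, as was the case for 0 of 10796 promoters (153 had an unadjusted p under 0.05), and the adjusted p was 0.682 to 0.697. Their differences were 0.46 to 0.92 beside a median of 0.86 over all genes. Of the 8, H2afx and H3f3a had both ApcMin/+ libraries above both WT libraries, a pattern present at 37.9% of promoters. After centring, the differences of these 8 ran from -0.43 at H2afy to 0.03 at H3f3a.

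**Figure D3:**
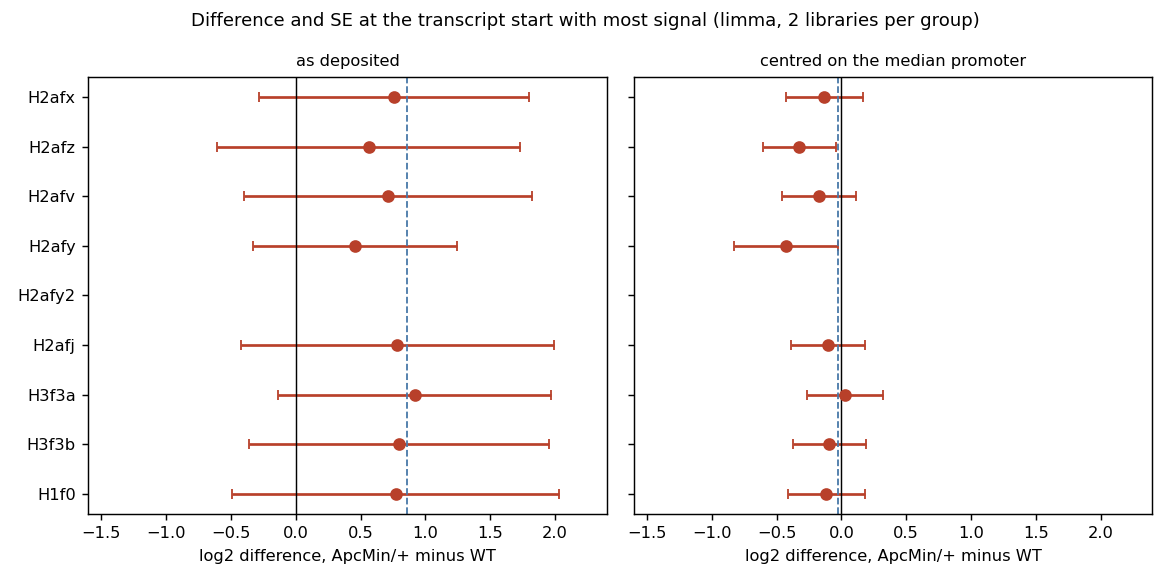
Log2 difference, ApcMin/+ minus WT, with its standard error from limma for the 8 variant genes tested at the annotated start with the highest signal, as deposited (left) and after centring (right). Dashed lines give the median over all 10796 promoters, and every error bar on the left spans 0, while on the right the bars of H2afz and H2afy end just below it.

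Enriched regions, called once on the mean of the 4 tracks at 5 times the genome-wide mean, covered the 5′ end of 6 of the 9 genes, as they did for 49.8% of all promoters. Apart from H1f0 they were 1900 bp long at H2afz, 2500 bp at H2afv, 3000 bp at H2afx and H3f3a, and 3500 bp at H2afj. At the strongest starts, H3f3b lay in a region of 2400 bp and H2afy in one of 1800 bp. These lengths moved with the way regions were called. At 10 times the mean, H3f3a had no region over its 5′ end and H2afx one of 1500 bp, and without ApcMin/+ replicate 1 the H2afj region was 1700 bp.

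Antisense or small RNA genes start within 2000 bp of several members. H3f3aos starts 167 bp from H3f3a, Gm43403 113 bp from H2afz, Gm48853 308 bp from H2afx and Gm49544 162 bp from H1f0, all on the opposite strand. The microRNA genes Gm44335 and Gm44364 lie 411 bp into H2afx and 439 bp into H2afj, and the pseudogene Gm11970 is 1775 bp upstream of H2afv. H3K4me3 has no strand, so signal from these starts and from the variant genes cannot be told apart.

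CpG content, which the choice of genes did not use, differed among the 3 unmarked or weakly marked 5′ ends. It was low at H3f3b but not at H2afy2, and H2afy lay between them. The ratio of observed to expected CpG in the 2001 bp window was 0.635 to 0.934 at the 6 genes tested, against medians of 0.640 over all promoters tested and 0.236 over those below the minimum. H2afz (0.934) stood at the 98.8th percentile of all promoters and H3f3a (0.870) at the 96.5th. H3f3b had a ratio of 0.179 at its gene 5′ end with 48.1% of the bases in repeats, against a median of 14.0%. H2afy, just under the minimum, had a ratio of 0.544, at the 58.4th percentile. H2afy2, in contrast, had a ratio of 0.790, at the 91.0th percentile, without comparable signal. Of the 5650 promoters with a ratio from 0.6 to 0.8, 78.2% reached the minimum for a test, so H2afy2 belonged to the minority of its class. Points in this comparison are promoters of the same libraries and are not independent replicates.

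**Figure D4:**
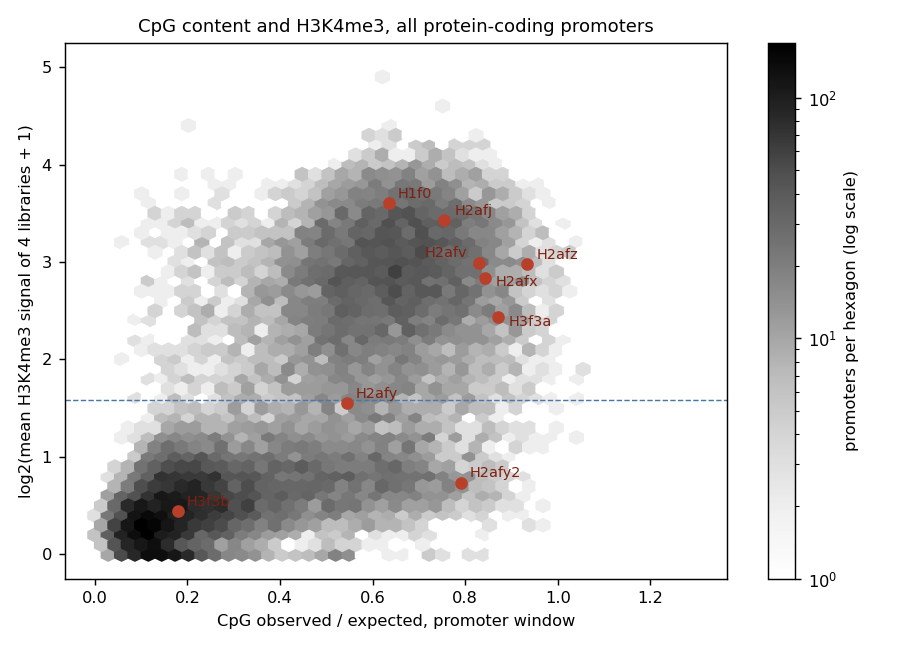
Ratio of observed to expected CpG in the 2001 bp window (horizontal) against log2(mean signal of 4 libraries + 1) (vertical) for 21938 protein-coding promoters, shaded by their number per hexagon on a log scale, with the 9 variant genes as red points. The dashed line is the mean signal of 2 required for a test, and H2afy2 lies below it at a CpG ratio of 0.790 while H3f3b at its gene 5′ end lies with the CpG-poor promoters.

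Among the 8 members found in the RefSeq promoter table (H2afx is not among them), 5 hold CCAAT in the 250 bases before the start (H2afz, H2afv, H2afj, H3f3a and H3f3b), 5 hold GGGCGG on either strand (H2afz, H2afv, H2afy, H2afj and H3f3a), as do 32.7% of all promoters, and none holds TGACGTCA, as do 1.55%. H3f3a has 4 copies of GGGCGG, some of which overlap. H2afy2 and H1f0, with the lowest and the highest mean signal at the strongest start, both lack all 4 motifs. A match to these letters is a description of the sequence and not a bound site.

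Factors that deposit and remove the variants were read in the same way. All 9 genes of H3.3 deposition were tested, with a median difference of 0.88 beside 0.85 over all promoters. None passed the test, and at 3 both ApcMin/+ libraries lay above both WT libraries, as at 38.5% of all promoters tested. Dek (1.70, SE 0.60), a chromatin protein that guides H3.3, and Cabin1 (1.07), a subunit of the HIRA complex, had the largest differences, and Hira itself (0.48) and Atrx (0.52) the smallest. Dek rested on a signal of 0 in WT replicate 1 against 1.59, 6.30 and 2.72 elsewhere. Both WT values were below the signal minimum, so Dek reached it only through its ApcMin/+ values.

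Of 12 genes for H2A.Z exchange 11 were tested, all but Ruvbl2, with a median difference of 0.75 and 3 with both ApcMin/+ libraries higher, against the 38.5% of all promoters. Mcrs1 (1.42) and Ino80 (1.03), both of the INO80 remodelling complex, were at the upper end, and Dmap1 (0.38) and Srcap (0.39), of the complexes that insert H2A.Z, at the lower end. Srcap gave 5.24, 3.98, 10.2 and 3.74 in WT and ApcMin/+ replicates 1 and 2, with ApcMin/+ replicate 2 the lowest. None of the 11 passed the test.

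H2A.X signalling was tested at 10 of 11 genes, with a median of 0.83 and 4 that had both ApcMin/+ libraries higher, where 38.5% of all promoters did. Atm (1.15), the kinase that phosphorylates H2A.X, and Trp53bp1 (1.09), which is recruited to the marked chromatin, had the largest differences and Eya3 (0.47), an H2A.X phosphatase, and Mdc1 (0.62), the reader of the phosphorylated tail, the smallest. Atm gave 5.40 and 4.27 in WT and 17.9 and 7.83 in ApcMin/+, so its groups did not overlap. After centring, 3 of the 10 had both ApcMin/+ libraries higher, among them Atm (0.30) and Trp53bp1 (0.23), against 13.1% of all promoters tested. Both were lower at 1, Eya3 (-0.38), against 14.3%. None of the 10 passed the test, and Eya1, a phosphatase like Eya3, was below the minimum. The other lists had such centred counts too. They were 3 higher and 3 lower of 9 replication-coupled and general chaperones. H3.3 deposition had 1 higher and 2 lower of 9, and H2A.Z exchange 1 higher and 3 lower of 11.

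Among 10 replication-coupled and general chaperones 9 were tested, with a median of 0.63, and 3 had both ApcMin/+ libraries higher, beside 38.5% overall. Nasp (1.16), a chaperone of H3 and H4, and Mms22l (1.16) had the largest differences, and Chaf1b (0.44), of the chromatin assembly factor, and Tonsl (0.49), the partner of Mms22l, the smallest. None passed the test. Mms22l and Tonsl, whose products form a complex, thus stood at opposite ends of the list, with standard errors of 0.98 and 1.03 that exceed the gap between them.

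Of 8 other histone variants only Cenpa, the centromeric H3, was tested. Its signal was 1.31 and 1.28 in WT and 7.36 and 2.17 in ApcMin/+, the groups did not overlap, and the difference was 1.17 (SE 0.67) with an adjusted p of 0.683 in limma. H1fx, the testis and oocyte linker histones H1foo, H1fnt and Hils1, and the H2A.B genes H2afb1, H2afb2 and H2afb3 had mean signals of 0 to 1.35. All 1135 olfactory receptor genes, which are silent outside the nose, were below the minimum as well.

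The 67 clustered, replication-dependent histone genes gave the background for the variant genes. At 50 of them that reached the minimum the median difference was 1.06, and at 31 both ApcMin/+ libraries lay above both WT libraries, where 38.5% of all promoters tested did so. None passed the test. After centring, 35 of the 50 lay above 0 and 15 below, with a median of 0.20. All 6 tested variant genes lay below, as did 51.2% of all promoters tested. Their values were -0.21 to -0.082 with standard errors of 0.28 to 0.33. The minimum was set on the mean of the 4 libraries, so a gene weak in WT could reach it through ApcMin/+ alone. Hist1h3h did so, with 0.35 and 1.27 in WT and 9.06 and 2.26 in ApcMin/+. The counts and medians of the clustered genes thus depend partly on the filter. The 6 tested variant genes had WT means of 3.03 to 7.68. Whether the variant and the clustered genes differ in their response was not tested. The highest mean signals were those of Hist2h4 (9.86) and Hist2h2ac (9.51), both below H1f0. The clustered genes are short and lie close together, so neighbouring windows share signal.

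The 3 genes whose log2(signal + 1) over the 4 libraries was nearest to the mean of the 9 members, by Euclidean distance, were Slc7a1 (0.063), a transporter of basic amino acids, Nfu1 (0.094), an iron-sulfur cluster protein, and Fam129b (0.105). All 3 lay below the median tested promoter in each library. Nfu1 had 2.87, 2.38, 6.84 and 2.89 in WT and ApcMin/+ replicates 1 and 2, against medians of 4.53, 3.06, 13.2 and 4.18. The mean of the 9 members takes in the weakly marked 5′ ends of H2afy, H2afy2 and H3f3b, so it is not the level of a typical member.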

How the data were processed

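The authors trimmed the reads, mapped the pairs on mm10 by Bowtie2, dropped duplicates with Picard and alignments of low quality with samtools, and kept fragments of nucleosome size. What they deposited is signal: HOMER coverage at every base, brought to 10000000 tags in each library, adjusted for the fragment length, with no control subtracted and replicates not pooled. The summed signal of a window over that of the whole track gave its share of the tags, and few tags, above all in WT replicate 1, mean a large counting error.

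Here the signal was averaged within 1000 bp of the 5′ end of 21938 genes on 21 chromosomes. Promoters with a mean of at least 2 were tested on log2(signal + 1) using limma 3.58.1 (R 4.3.3) with its trend option, two-sided, with Benjamini-Hochberg adjustment over all promoters tested and a threshold of 0.05. A fold change on this scale understates low promoters. Enriched regions were called in 100 bp bins, joined over 500 bp and at least 300 bp long. Other steps used Python 3.11.15. The code of the test was run on simulated data, which checks the code and not whether the test suits libraries that differ this widely. The methods state 2 mice per genotype. Groups and replicates follow the labels. The members and gene lists were chosen with earlier results of these data known. All 9 members were described, as were the 2 highest and 2 lowest differences of each deposition, chaperone and signalling list, the tested other variants, the 2 clustered genes with most signal, the 3 nearest profiles and all starts within 2000 bp. Genes starting farther away were named after their values were seen. Alternatives were the scaling, start, window, filter, pseudocount, replicate block, region calls and each library left out.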

Additional observations from a re-analysis of the deposited data

How the results depend on the processing

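Centring on the median promoter turned the sign of all 6 tested differences, to -0.10 at H2afx, -0.21 at H2afz, -0.12 at H2afv, -0.082 at H2afj, -0.17 at H3f3a and -0.084 at H1f0, with a replicate block giving the same values, and quantile normalization gave -0.14, -0.23, -0.17, -0.14, -0.14 and -0.062 in that order. At the strongest starts, centred (an alternative chosen after seeing the data), the values were -0.13 at H2afx, -0.32 at H2afz, -0.17 at H2afv, -0.10 at H2afj and -0.12 at H1f0. The median over the 9 genes, 0.71 as deposited, was -0.14 centred, with or without the replicate block, and -0.13 at the strongest starts centred. After quantile normalization it was -0.14. That normalization covered only the promoters tested, so the 3 genes below the minimum entered this median with their values as deposited. Centring with no filter, also chosen after seeing the data, uses a median set by silent promoters and gave 0.10 to 0.57. Promoters past the threshold, 0 as deposited, numbered 12 centred, 2 after quantile normalization, 1 with the replicate block, 15 with the block and centring and 13 at the strongest starts centred, with 0 variant genes among them each time. Variant genes whose groups did not overlap numbered 4 higher and 0 lower as deposited. H2afx and H3f3a, which were tested, stand beside 38.5% higher and 0.161% lower of all promoters tested. H2afy2 and H3f3b were not tested, and 26.0% of promoters were higher when no minimum was set. Centred, the counts were 0 higher and 2 lower, H2afz and H2afy, with the same counts with the block and at the strongest starts. At the 5′ end only H2afz of these was tested, and 13.1% of all promoters tested were higher and 14.3% lower. After quantile normalization the variant genes without overlap numbered 2 higher and 1 lower, and the 2 higher were H2afy2 and H3f3b, whose values stayed as deposited. With a window of 500 bp 1 was higher, and centred with no filter 0 were higher. Shares over all promoters are not given for the strongest starts centred, quantile normalization, the 500 bp window and centring with no filter, so nothing is read from those counts. The 3 genes below the minimum count among all these numbers.

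Leaving out 1 library at a time, as deposited or centred, gave -0.42 to 1.36 at H2afx, -0.30 to 1.44 at H2afz, -0.31 to 1.65 at H2afv, -0.40 to 1.82 at H2afj, -0.44 to 1.14 at H3f3a and -0.45 to 1.55 at H1f0, a median over the 9 genes of -0.36 to 1.36, 0 to 5 variant genes and 0 to 6479 promoters past the threshold, and 1 to 9 variant genes higher and 0 to 5 lower without overlap. The 5 variant genes past the threshold came without ApcMin/+ replicate 2. All 9 were higher without overlap when ApcMin/+ replicate 2 or WT replicate 1 was left out, and without WT replicate 1 0 promoters passed limma's test, with 0 at an unadjusted p under 0.05. As deposited, the left-out runs gave 4 to 9 variant genes higher and 0 lower without overlap. Centred, they gave 1 to 2 higher and 4 to 5 lower. For the 6 tested genes among these 9, the share of all promoters tested was 98.9% without ApcMin/+ replicate 2 and 87.5% without WT replicate 1. H2afy, H2afy2 and H3f3b, below the minimum, are outside those shares. Shares for the other runs are not given, so nothing is read from their counts. The cause was not tested. The replicate numbers of the labels are shared between genotypes but pair nothing that the labels name. The deviations of the replicates numbered 1 correlated at 0.20 across promoters, and the block changed no call at a variant gene. At H2afy2 and the 5′ end of H3f3b at most 17 tags were seen, and the exact 95% Poisson intervals of the 4 libraries overlapped one another.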
